A study of Mus musculus with 8 samples.

Results

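The genes described here code for the enzymes of phase II metabolism, which attach a polar group to drugs, steroids, bile acids, bilirubin and reactive lipid products so that they can leave the hepatocyte. They were taken by name alone as every gene whose symbol begins with Gsta, Gstk, Gstm, Gsto, Gstp, Gstt, Gstz, Mgst, Ugt1, Ugt2, Ugt3 or Sult, followed only by digits and letters, and no measured value entered the choice. This gave 62 of the 23337 genes counted in mouse liver: 21 soluble glutathione S-transferases (Gst), 3 microsomal glutathione transferases (Mgst), 20 UDP-glucuronosyltransferases (Ugt) and 18 sulfotransferases (Sult). Of these, 51 had enough reads to be tested (20 Gst, 2 Mgst, 18 Ugt and 11 Sult) among 14328 tested genes.

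Liver RNA was sequenced in 8 samples from C57BL/6 mice aged 12 weeks, 2 samples in each of 4 groups. The genotypes were WT and HRD1Alb, in which a floxed Hrd1 gene (Syvn1 in the count files, Hrd1-/- in the sample labels) is deleted by a Cre recombinase driven from the albumin promoter, which is active in hepatocytes. HRD1 is the ubiquitin ligase in the endoplasmic reticulum membrane that marks misfolded proteins for degradation. Fasted mice went without food overnight, and refed mice were fasted overnight and then given food for 4 h. All 4 groups therefore share the strain, the age and the overnight fast. The question asked of each gene was whether its RNA differed between genotypes within a feeding state, and between feeding states within a genotype.

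Glutathione S-transferases join glutathione to electrophiles. The soluble enzymes fall into alpha (Gsta), mu (Gstm), pi (Gstp), theta (Gstt), kappa (Gstk), omega (Gsto) and zeta (Gstz) classes, and the microsomal enzymes, such as Mgst1, sit in membranes. UDP-glucuronosyltransferases face the lumen of the endoplasmic reticulum and transfer glucuronic acid from UDP-glucuronic acid; the Ugt1a enzymes, Ugt1a1 for bilirubin among them, are made from alternative first exons joined to shared last exons of a single gene, whereas each Ugt2b and Ugt3a enzyme has a gene of its own. Sulfotransferases are cytosolic and take sulfate from the donor PAPS. In mouse liver several of these genes are known to differ between the sexes, with Gstp1, Ugt2b1 and Ugt2b38 higher in males and Sult2a1, Sult2a2 and Sult3a1 higher in females.

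Several members resemble each other closely and lie in the same genomic cluster, which bears on how surely a read can be given to one of them. Ugt2b5 and Ugt2b38 stand on the minus strand of chromosome 5 and Gstp1 and Gstp2 on the minus strand of chromosome 19, and the 250 bases upstream of each annotated start (RefSeq, build GRCm38.p6) are shown because these 4 genes carry contrasting values below. Within each pair the capitals mark the longest run of bases that both windows hold.

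Ugt2b5, chr5:87140341-87140590, minus strand: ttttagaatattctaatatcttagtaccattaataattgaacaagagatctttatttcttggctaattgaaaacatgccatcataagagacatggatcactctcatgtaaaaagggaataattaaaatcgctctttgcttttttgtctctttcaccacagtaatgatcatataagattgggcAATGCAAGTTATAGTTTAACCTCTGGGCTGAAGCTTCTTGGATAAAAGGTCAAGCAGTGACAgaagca

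Ugt2b38, chr5:87424204-87424453, minus strand: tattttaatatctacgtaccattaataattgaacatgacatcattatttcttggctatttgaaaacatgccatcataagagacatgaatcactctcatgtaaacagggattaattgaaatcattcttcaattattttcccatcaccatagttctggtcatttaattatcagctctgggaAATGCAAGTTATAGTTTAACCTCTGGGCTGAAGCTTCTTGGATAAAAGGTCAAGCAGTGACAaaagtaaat

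Gstp1, chr19:4037913-4038162, minus strand: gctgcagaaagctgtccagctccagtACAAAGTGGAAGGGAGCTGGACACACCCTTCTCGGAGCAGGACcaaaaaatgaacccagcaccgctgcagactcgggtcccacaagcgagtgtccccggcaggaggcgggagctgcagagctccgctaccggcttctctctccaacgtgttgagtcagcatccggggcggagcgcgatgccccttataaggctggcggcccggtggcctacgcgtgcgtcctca

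Gstp2, chr19:4042222-4042471, minus strand: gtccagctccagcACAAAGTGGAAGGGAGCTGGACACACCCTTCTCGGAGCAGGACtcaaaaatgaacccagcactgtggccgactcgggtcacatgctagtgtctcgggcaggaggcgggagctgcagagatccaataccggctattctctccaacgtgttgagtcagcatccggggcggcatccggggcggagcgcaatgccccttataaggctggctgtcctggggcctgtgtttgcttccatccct

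The Ugt2b windows were identical at 212 of 260 alignment columns (81.5%), with a shared run of 62 bases close to the start, and the Gstp windows at 207 of 265 columns (78.1%), with a shared run of 43 bases. The likeness extends into the transcripts. Counted as 50-base words found in another gene, 37.4% of the Ugt2b38 transcript, 41.7% of Ugt2b5, 33.7% of Gstp1, 54.3% of Gstp2, 90.5% of Gsta1 and 62.1% of Sult2a2 were shared, against none of Ugt2b1, Sult1e1, Gstm4, Gstm5 or Mgst1. How reads that match several genes were treated is not given in the sources used here, so values of the sharing genes are uncertain to that extent, and so are those of the 8 Ugt1a genes, which share between 54.6% and 90.7% of their exonic length with another gene of the locus, the common last exons included. Motifs were sought on either strand in the 250 bases before the start, among the 54 members with a promoter in the RefSeq table. The letters TGACNNNGC, a core of the antioxidant response element, stood in 4 (7.41%, against 11.5% of all 27025 promoters), namely Gsta3, Gstm5, Gstm7 and Mgst1. The letters TTCNNNGAA, the STAT motif, stood in 4 (7.41%; 8.13% of all), namely Gsta1, Gstm6, Sult3a1 and Ugt1a6a.

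The libraries held 40210576 to 49117080 reads assigned to genes. The targeted gene itself was read first. Syvn1 stood at 111 and 99.8 CPM (counts scaled to a common library size) in the fasted WT libraries and at 32.6 and 31.5 in the fasted HRD1Alb libraries, with no overlap (34.2% of all tested genes were lower without overlap there). After refeeding it stood at 637 and 305 CPM in WT and at 453 and 132 in the libraries labelled HRD1Alb, so that replicate 1 of the latter lay between the WT libraries. In the test described below neither difference was called (log2 fold change -1.715, edgeR adjusted p = 0.17, in fasted and -0.686, edgeR adjusted p = 0.391, in refed liver). A count over the whole gene does not show the deleted exons, and the genotype of the refed libraries is therefore given as labelled. The refed libraries labelled HRD1Alb also differed from each other more than any other pair: 3204 of the 14328 tested genes were over 2-fold apart between them, against 424 to 1141 in the other groups, and the longer a transcript was, the lower it tended to read in replicate 2 against replicate 1 (Spearman's rho -0.581 over 12941 genes, which are not independent, with -0.112 to 0.0304 in the other groups). The median log2 ratio was 0.82 for transcripts under 1500 bases and -0.43 for those of 3000 bases or more. The main results on refed liver are therefore given below with and without each of these libraries. The spread that all comparisons shared moved with these libraries: the common dispersion, the squared coefficient of variation between replicates, was 0.0573 with all 8 libraries and 0.0198 with either of the refed HRD1Alb libraries left out. Such a fit leaves the refed HRD1Alb group with 1 library and a smaller spread. A call that stands in it is therefore no further support for that call.

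Levels are given as CPM, with library sizes scaled by TMM normalization, and fold changes as log2 values with their standard error (SE), tested with edgeR's quasi-likelihood test with Benjamini-Hochberg adjustment over all tested genes, where an adjusted p under 0.05 counts as a call. Divided by exonic length, so that genes can be set side by side, the mean level over all libraries was highest for Mgst1 at 2250 CPM per kilobase, followed by Gstm1 at 856, Gsta3 at 595, Gstp1 at 370, Ugt2b5 at 323, Gstz1 at 314, Ugt2b36 at 266 and Sult1a1 at 261. Mgst1 reduces lipid peroxides as well as conjugating glutathione, and Gstz1 is the maleylacetoacetate isomerase of tyrosine breakdown. At the other end, Sult1c1 and Sult2a4 had 0 counts in every library. The other 9 members that were not tested were Gstt4, Mgst2, Sult2a3, Sult2a5, Sult2a6, Sult2b1, Sult4a1, Ugt2a1 and Ugt2a2, each below 2 CPM in every library.

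Summed over its members, the Ugt family stood at 4480 and 4000 CPM in fasted WT liver and at 2270 and 2570 in fasted HRD1Alb liver, and at 4550 and 4060 in refed WT against 2520 and 2300 in refed HRD1Alb liver. Every HRD1Alb library was below every WT library. The Mgst sum, almost all of it Mgst1, was 4880 and 5190 in fasted WT, 2990 and 3090 in fasted HRD1Alb, 5070 and 5110 in refed WT and 2820 and 4000 in refed HRD1Alb liver, again without overlap. The Gst and Sult sums did not separate the genotypes. For Gst they were 3570 and 4060 (fasted WT), 3610 and 3270 (fasted HRD1Alb), 3980 and 4130 (refed WT) and 3570 and 6190 (refed HRD1Alb), and the Sult sums of WT and HRD1Alb libraries overlapped in both feeding states.

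**Figure D1:**
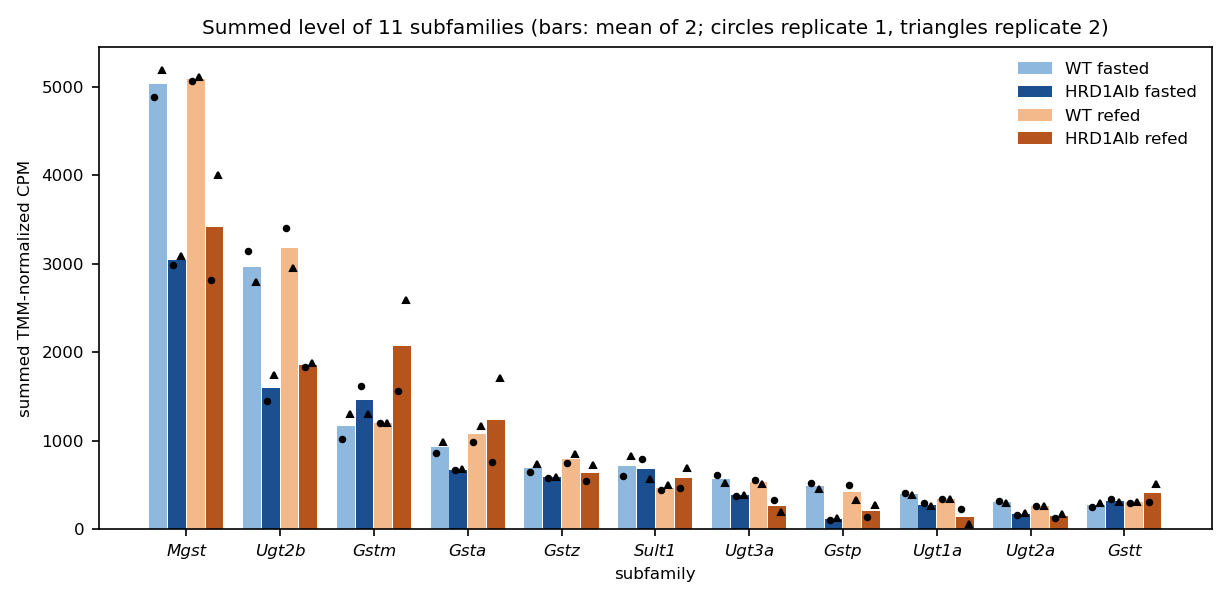
Summed CPM of 11 subfamilies in the 4 groups; bars are means of 2 libraries and points are the libraries. Ugt2b stood at 2790 to 3400 CPM in the WT libraries and at 1450 to 1880 in the HRD1Alb libraries, and Gstp at 333 to 523 against 107 to 268, while Gstm and Gsta were highest in refed HRD1Alb replicate 2 (2590 and 1710 CPM).

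In fasted liver 4 members passed the test between genotypes, 2 higher and 2 lower in HRD1Alb liver; over all tested genes the share called was 1.35%, with 0.921% higher and 0.433% lower. The higher ones were Sult1e1, the estrogen sulfotransferase, and Gstm3, a mu-class transferase; the lower ones were Gstp1, the pi-class transferase, and Ugt2b1, a glucuronosyltransferase of steroids and drugs. Beyond these calls, the Ugt genes lay on the lower side as a family: 16 of 18 had a negative log2 fold change, with a median of -0.82, against a median of -0.02 over all tested genes. The 18 are not independent, here or in refed liver, since the 8 Ugt1a genes among them share exons. The HRD1Alb libraries were both below both WT libraries for 15 of the 18, where 34.2% of all tested genes showed the same. The medians of the 20 Gst genes and the 11 Sult genes were 0.01 and 0.83.

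Gstp1 (chromosome 19, 4035407 to 4037985, minus strand; coordinates here and below are GENCODE M21 on GRCm38) was at 520 and 448 CPM in fasted WT liver and at 106 and 123 CPM in fasted HRD1Alb liver. The HRD1Alb libraries were far below the WT libraries, with no overlap, and the fold change was -2.08 (SE 0.34, edgeR adjusted p = 0.0429). Its neighbour Gstp2, whose promoter is shown above beside that of Gstp1, stood at 2.39 and 1.44 CPM in WT and 0.763 and 2.22 in HRD1Alb liver, where the libraries overlapped (-0.36, adjusted p = 0.823).

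Ugt2b1 (chromosome 5, 86916638 to 86926530, minus strand) was at 806 and 706 CPM in fasted WT and at 277 and 341 CPM in fasted HRD1Alb liver, a change of -1.29 (SE 0.22, edgeR adjusted p = 0.0485) without overlap. Ugt2b38 (chromosome 5, 87409942 to 87424203, minus strand) had the largest negative fold change of the family, from 13.7 and 5.35 CPM in WT to 0.235 and 0.981 CPM in HRD1Alb liver. Its groups did not overlap, but the libraries within each group were over 2-fold apart, and the change of -3.95 (SE 1.03) missed the threshold (edgeR adjusted p = 0.109). Ugt2b5, the Ugt2b gene whose upstream window shares a 62-base run with it, was at 841 and 695 CPM in WT and 316 and 437 in HRD1Alb liver (-1.03, SE 0.30, adjusted p = 0.131). Ugt2a3, which acts on bile acids, had 317 and 299 CPM in WT and 154 and 186 in HRD1Alb liver (-0.86, SE 0.19, adjusted p = 0.0814). Ugt2b37 was the member of the Ugt2b cluster with a positive value, 4.84 and 1.19 CPM in WT and 4.69 and 7.54 in HRD1Alb liver, and its groups overlapped.

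Sult1e1 (chromosome 5, 87575969 to 87591594, minus strand), which inactivates estrogens, was at 0.524 and 0.487 CPM in fasted WT and at 3.05 and 4.09 CPM in fasted HRD1Alb liver. The groups were well apart although the level was low in both, and the change was 2.81 (SE 0.34, edgeR adjusted p = 0.0213). Gstm3 (chromosome 3, 107963696 to 107969283, minus strand) was at 9.4 and 5.91 CPM in WT and 57.1 and 26.2 CPM in HRD1Alb liver, a change of 2.44 (SE 0.44) that lay at the edge of the threshold (edgeR adjusted p = 0.04996). Its mu-class neighbour Gstm2 moved from 24.9 and 32.4 CPM in WT to 91.7 and 66.9 in HRD1Alb liver (1.47, SE 0.31, adjusted p = 0.0699), whereas Gstm1, the most abundant mu-class gene, overlapped between the genotypes at 844 and 1100 CPM in WT and 1320 and 1060 in HRD1Alb liver.

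Of the hydroxysteroid sulfotransferases, Sult2a2 read 0.0499 and 0.0243 CPM in fasted WT liver, which is 2 and 1 counts, and 5.18 and 0.309 CPM (265 and 17 counts) in fasted HRD1Alb liver. Both HRD1Alb libraries were above both WT libraries but 1 of them held nearly all of the reads, and the adjusted p was 0.165. Sult2a1 overlapped between the genotypes, at 0.0249 and 0.0487 CPM in WT and 1.13 and 0.0363 CPM in HRD1Alb liver. Sult3a1 had 0.0748 and 0.316 CPM in WT and 4.4 and 1.63 in HRD1Alb liver, a fitted change of 3.92 (SE 0.77, edgeR adjusted p = 0.0586). The abundant sulfotransferases were not called: Sult1a1, which acts on phenols, overlapped between the genotypes at 321 and 582 CPM in WT and 391 and 307 in HRD1Alb liver, as did Sult1d1, which acts on catecholamines, at 261 and 216 against 369 and 224 CPM.

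**Figure D2:**
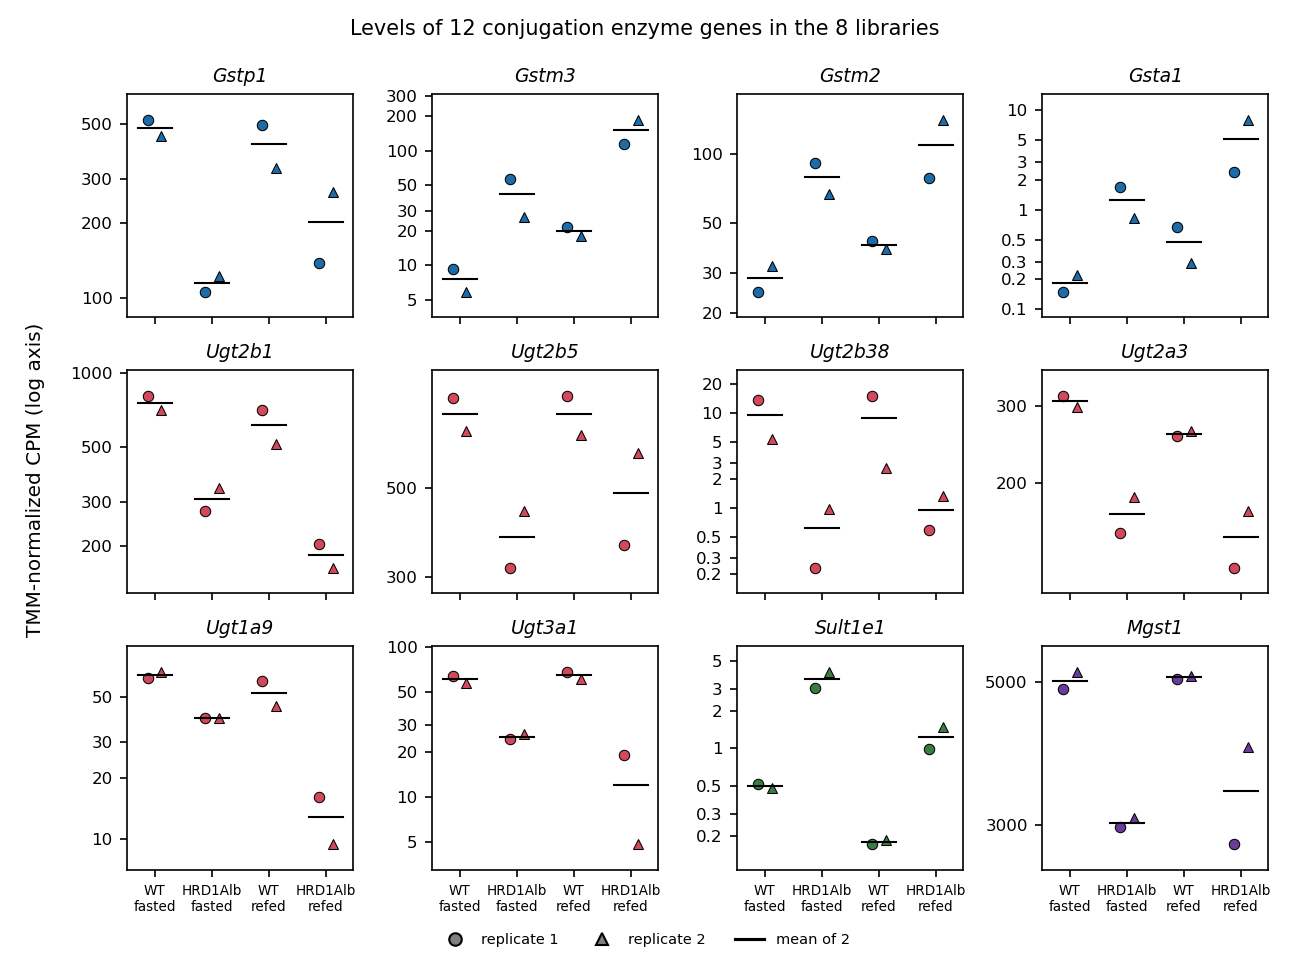
CPM of 12 genes in each of the 8 libraries on a log axis; circles are replicate 1, triangles replicate 2 and lines the mean of the 2. Gstp1, Ugt2b1, Ugt2b5, Ugt2b38, Ugt2a3, Ugt1a9, Ugt3a1 and Mgst1 lie lower and Gstm2, Gstm3, Gsta1 and Sult1e1 higher in both HRD1Alb libraries of each feeding state; the genes were picked after their values were seen.

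The number of calls in fasted liver changed when refed libraries were left out of the fit. With both refed HRD1Alb libraries left out, an alternative added after the data were seen, 24 of 49 tested members passed (8 higher, 16 lower) where 22.2% of all tested genes did, and these included all 4 of the calls above. The fold changes hardly moved. In that fit Gstp1 changed by -2.08 (SE 0.20, edgeR adjusted p = 0.00357), Ugt2b1 by -1.29 (0.00692), Ugt2b5 by -1.02 (0.0141), Ugt2a3 by -0.85 (0.00575), Mgst1 by -0.72 (0.0112), Ugt3a1 by -1.26 (0.00245) and Ugt2b38 by -3.94 (0.0316). Among the genes higher in HRD1Alb liver there, Sult1e1 changed by 2.82 (0.00357), Gstm2 by 1.47 (0.0051), Gstm3 by 2.45 (0.00891), Gsta1 by 2.74 (0.0206) and Sult3a1 by 3.92 (0.0141). Without refed HRD1Alb replicate 1 alone, or replicate 2 alone, 24 members passed as well (21.7% and 21.3% of all tested genes). Without any single one of the other 6 libraries 0 members passed in edgeR, with 8 to 19 at an unadjusted p under 0.05. With only the 4 fasted libraries in the fit 20 of 47 passed (14.6% of all tested genes).

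Other ways to make a call gave larger or smaller counts in fasted liver. RLE normalization called 3 members, limma-trend 4, a replicate block 2 and a filter of at least 10 counts in every sample 1. The shares of all tested genes called in these settings are not given here, so these counts are not set against them. DESeq2 called 13 members (6 higher, 7 lower) where it called 7.64% of all tested genes, the offset for transcript length described below 12 (5 higher, 7 lower; 6.38%), and a 2-fold change with an unadjusted edgeR p under 0.05 was met by 13, of which 6 were higher and 7 lower, against 6.84% and 1.51% of all tested genes. Of the 51 tested members 21 had both HRD1Alb libraries below both WT libraries (34.2% of all tested genes) and 12 had both above (30.6%).

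In refed liver 10 members passed between the genotypes, 5 higher and 5 lower in the libraries labelled HRD1Alb, where 11.9% of all tested genes passed (7.09% higher and 4.84% lower). The higher ones were Gsta1, Gstm2, Gstm3, Gstm5 and Sult1e1, and the lower ones Ugt1a9, Ugt1a10, Ugt2a3, Ugt2b1 and Ugt3a1. All of the Gst calls were thus upward and all of the Ugt calls downward. Of the 18 Ugt genes 17 had a negative fold change (median -1.26), and 16 had both HRD1Alb libraries below both WT libraries (30.1% of all tested genes). Of the 20 Gst genes 17 had a positive one (median 0.41), and 12 had both HRD1Alb libraries above both WT libraries (30.7% of all tested genes). The median over all tested genes was 0.04. With an offset for transcript length, described below and added after the data were seen, 10 of the 20 Gst genes were positive and 10 negative (median -0.03), whereas 17 of the 18 Ugt genes were negative (median -1.36).

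Ugt2b1 was at 709 and 516 CPM in refed WT and 204 and 163 CPM in refed HRD1Alb liver. The groups were well apart and the change was -1.74 (SE 0.23, edgeR adjusted p = 0.011), or -1.91 without HRD1Alb replicate 1 and -1.59 without replicate 2. Ugt2a3 was at 256 and 263 CPM in WT and 128 and 173 CPM in HRD1Alb liver (-0.79, SE 0.19, adjusted p = 0.0431), and -0.59 and -1.03 without each HRD1Alb library in turn. Ugt3a1, of a small subfamily whose human counterparts use other UDP sugars, stood at 67.8 and 60.8 CPM in WT and at 19.1 and 4.87 CPM in HRD1Alb liver. Both HRD1Alb libraries were low, replicate 2 the more so, and the change of -2.42 (SE 0.54, adjusted p = 0.0342) was -3.73 without replicate 1 and -1.75 without replicate 2.

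The Ugt1a genes were lower in replicate 2 than in replicate 1 of the refed HRD1Alb libraries at 8 of 8 genes (median log2 ratio -1.98). Ugt1a9 was at 59.8 and 45 CPM in refed WT and at 16 and 9.43 CPM in refed HRD1Alb liver, both below WT, and the change was -2.04 (SE 0.27, edgeR adjusted p = 0.0111), -2.48 without replicate 1 and -1.71 without replicate 2. Ugt1a10 had 0.37 and 0.499 CPM in WT and 0.118 and 0.0877 in HRD1Alb liver, 7 and 4 counts in the latter, and its call (-2.03, adjusted p = 0.0384) was lost without replicate 2 (-1.85, adjusted p = 0.0604). Ugt1a1, the bilirubin enzyme, was at 197 and 209 CPM in WT and at 175 and 32.2 CPM in HRD1Alb liver. It was not called with all libraries (-0.97, adjusted p = 0.302), and rested on replicate 2 where it was called: -2.67 (8.07e-05) without replicate 1 and -0.22 (0.313) without replicate 2.

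Gstm3 was at 21.7 and 18 CPM in refed WT and at 115 and 186 CPM in refed HRD1Alb liver, far apart, with a change of 2.92 (SE 0.44, edgeR adjusted p = 0.0138), 3.22 without HRD1Alb replicate 1 and 2.53 without replicate 2. Gstm2 was at 41.7 and 38.5 CPM in WT and 78.4 and 142 in HRD1Alb liver (1.46, SE 0.31, adjusted p = 0.0309), 1.82 and 0.96 without each in turn. Gstm5 was at 5.36 and 7.12 CPM in WT and 11 and 23.1 in HRD1Alb liver (1.45, SE 0.36, adjusted p = 0.0458), 1.88 and 0.82 without each in turn. Gsta1, an inducible alpha-class gene that shares most of its sequence with other loci, was at 0.667 and 0.289 CPM in WT and 2.39 and 8 CPM in HRD1Alb liver (3.43, SE 0.72, adjusted p = 0.0299), 4.04 and 2.30 without each in turn. In each of these genes both HRD1Alb libraries were above both WT libraries, and replicate 2 was the higher of them, as it was for 19 of the 20 tested Gst genes.

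The direction of Gsta3, the most abundant alpha-class gene, turned with the library left out. Gsta3 was at 935 and 1120 CPM in refed WT and at 701 and 1600 CPM in refed HRD1Alb liver, 1 library below and 1 above the WT libraries. Its change was 0.16 (SE 0.35, edgeR adjusted p = 0.756) with all libraries, 0.63 (0.0117) without replicate 1 and -0.56 (0.0451) without replicate 2.

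Sult1e1 was at 0.173 and 0.184 CPM (7 counts each) in refed WT and at 0.999 and 1.49 CPM in refed HRD1Alb liver, a change of 2.78 (SE 0.39, edgeR adjusted p = 0.0121) without overlap, 3.04 without HRD1Alb replicate 1 and 2.46 without replicate 2. Gstp1 was at 495 and 333 CPM in WT and at 138 and 266 CPM in HRD1Alb liver. The groups did not overlap, but replicate 2 lay close to the lower WT library, and the change of -1.03 (SE 0.33) missed the threshold (adjusted p = 0.0803). It was -0.64 (0.057) without replicate 1 and -1.59 (0.00701) without replicate 2. Ugt2b38 stood at 15.1 and 2.65 CPM in WT and 0.592 and 1.32 in HRD1Alb liver, where both HRD1Alb libraries were again below both WT libraries (-3.24, SE 0.99, adjusted p = 0.0733), with -2.76 and -3.91 without HRD1Alb replicate 1 and 2. Mgst1 was at 5060 and 5100 CPM in WT and 2810 and 3970 in HRD1Alb liver (-0.58, SE 0.21, adjusted p = 0.103), and was called without replicate 2 but not without replicate 1 (-0.36, adjusted p = 0.0818, without replicate 1 and -0.86, adjusted p = 0.0103, without replicate 2).

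**Figure D3:**
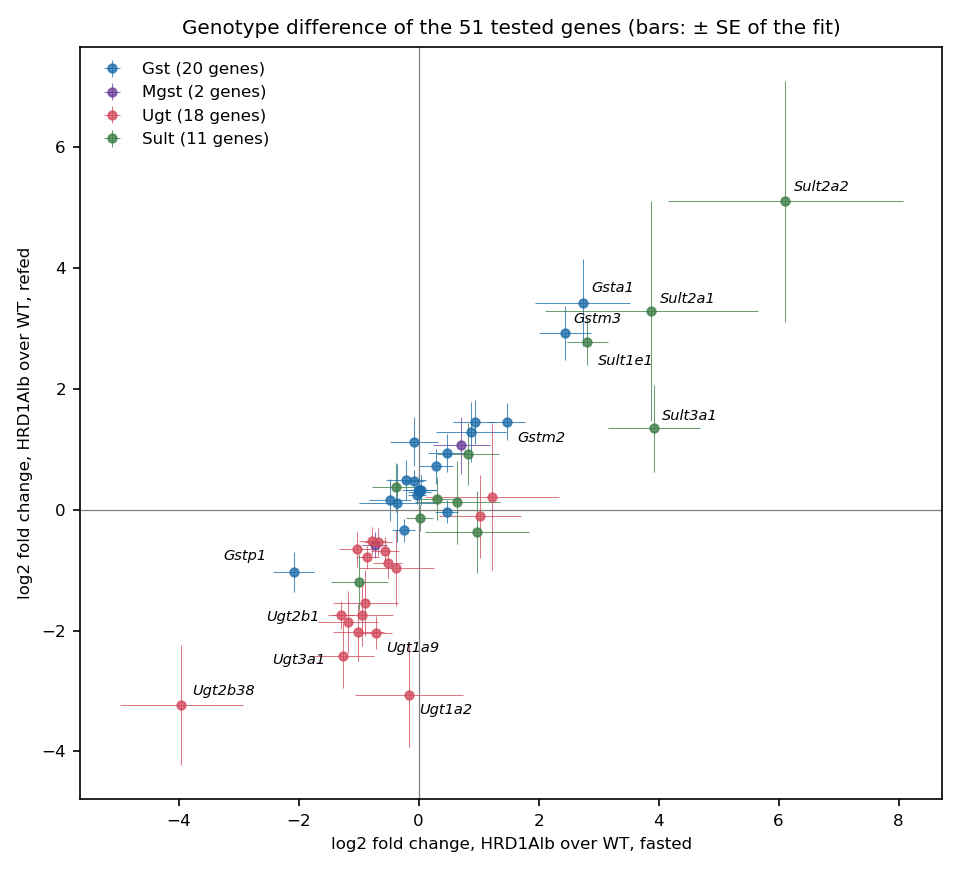
Log2 fold change of HRD1Alb over WT liver for the 51 tested genes, fasted on the horizontal and refed on the vertical axis, coloured by family, with bars of 1 SE. The Ugt genes fill the lower left, with medians of -0.82 and -1.26, and Sult1e1 (2.81 and 2.78) and Gstm3 (2.44 and 2.92) the upper right; the 2 comparisons share no library.

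The number of refed calls moved with the treatment of these libraries. DESeq2 called 22 members (8 higher, 14 lower; 22.2% of all tested genes), and 8 members were 2-fold higher and 11 were 2-fold lower at an unadjusted edgeR p under 0.05 (11.4% and 4.83% of all tested genes). With only the 4 refed libraries in the fit edgeR called 0 of 48 members and 0% of all tested genes, with 19 members at an unadjusted p under 0.05; without any single fasted library it called 4, and without either refed WT library 0, with 15 and 17 at an unadjusted p under 0.05. Without HRD1Alb replicate 1, 28 of 53 tested members passed (15 higher, 13 lower; 52.8% of all tested genes), and without replicate 2, 22 (6 higher, 16 lower; 23.7%). With the offset, which removes the trend of each library with transcript length, 20 of 51 passed (5 higher, 15 lower; 20.3%), including all 10 calls above. The upward Gst changes became smaller there, with Gstm3 at 2.46, Gsta1 at 2.65, Gstm2 at 0.93 and Gstm5 at 0.83, and the added calls were all downward: Gstp1 at -1.72 (edgeR adjusted p = 0.00591), Mgst1 at -0.87 (0.00855), Ugt2b36 at -0.82 (0.0163), Ugt2b5 at -0.95 (0.0299), Gstz1 at -0.54 (0.0317), Ugt2b34 at -0.61 (0.0337), Ugt3a2 at -1.02 (0.0367), Ugt2b38 at -3.53 (0.0432), Ugt1a2 and Ugt1a6b.

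**Figure D4:**
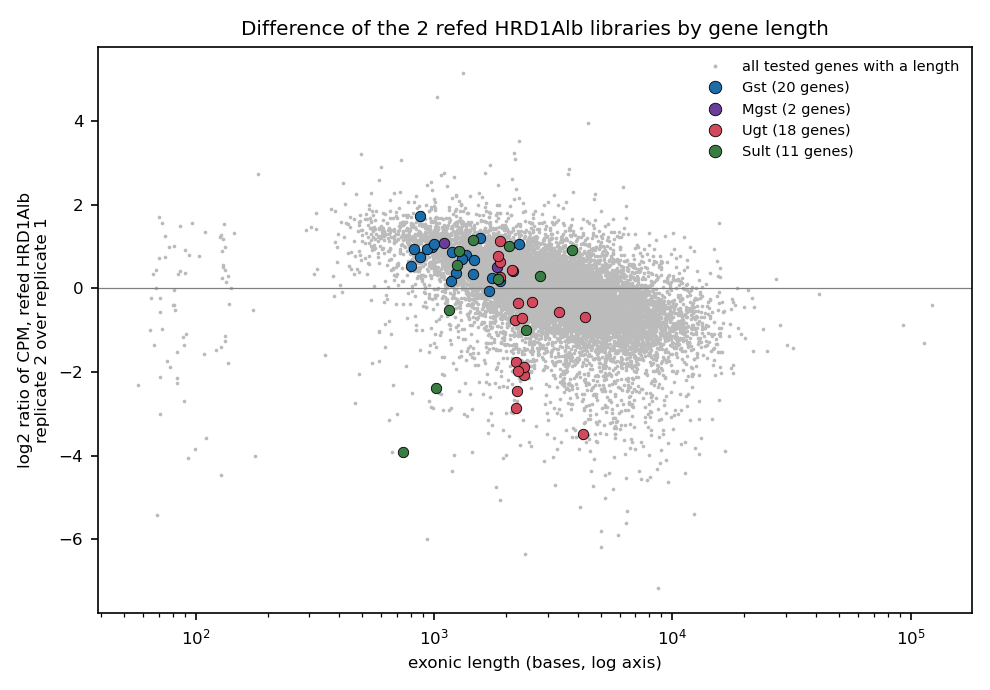
Log2 ratio of replicate 2 to replicate 1 of the refed HRD1Alb libraries against exonic length (log axis), with all tested genes in grey and the tested members coloured by family. Short transcripts tend to lie above 0 and long ones below it, and 19 of 20 Gst genes are above 0 (median 0.72). The Ugt1a genes, with a median length of 2234 bases, are below 0 at 8 of 8 genes (median -1.98). The median over all genes of 1500 to 3000 bases was 0.2.

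Along chromosome 5 the Ugt2 genes and 3 Sult1 genes form a single cluster in the order Ugt2b34, Ugt2b1, Ugt2b35, Ugt2b36, Ugt2b5, Ugt2b37, Ugt2a3, Ugt2b38, Sult1b1, Sult1d1 and Sult1e1 (Ugt2a1 and Ugt2a2, between Ugt2b38 and Sult1b1, were not tested). The direction did not run uniformly through it. Of the 8 Ugt2 genes, 7 had negative changes in fasted and 8 in refed liver, from -0.11 for Ugt2b37 in refed liver to -3.95 for Ugt2b38 in fasted liver. At the end of the cluster, Sult1b1, which acts on thyroid hormone, had changes of 0.02 and -0.14, Sult1d1 of 0.31 and 0.18, and Sult1e1 of 2.81 and 2.78. In the mu-class cluster on chromosome 3 all 7 genes had positive changes in refed liver with all libraries, from 0.29 for Gstm7 to 2.92 for Gstm3. Gstm5, Gstm3 and Gstm2 were called higher there, and Gstm7, Gstm6, Gstm1 and Gstm4 were not called in either state. With the offset for transcript length Gstm7 was at -0.094 in refed liver. Gstm4, in that cluster, overlapped in fasted liver at 40.3 and 44.6 CPM in WT and 44.9 and 40.4 CPM in HRD1Alb liver (0.01, adjusted p = 0.985).

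**Figure D5:**
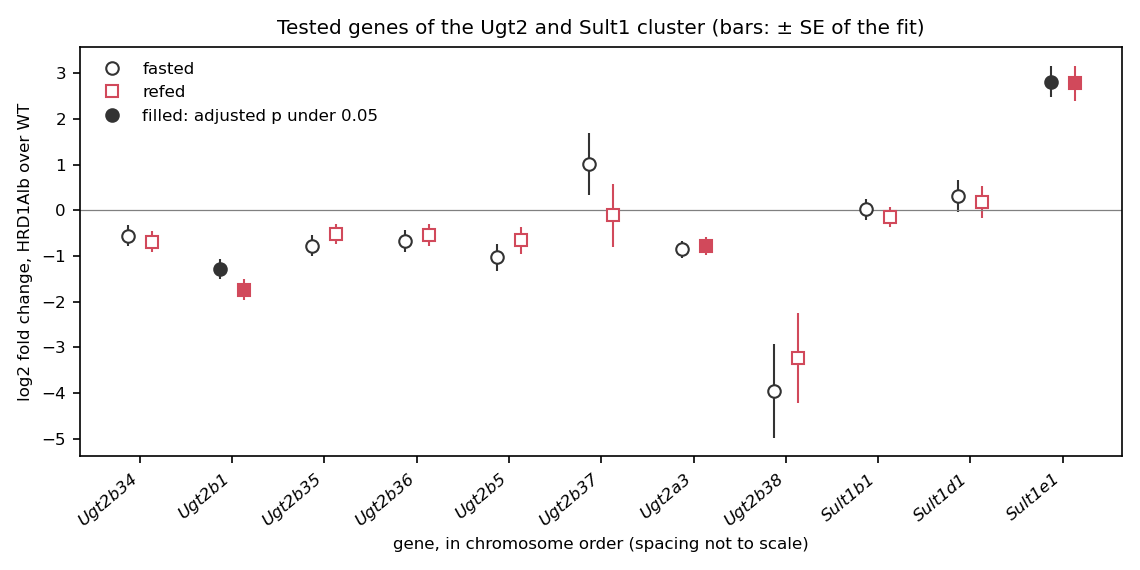
Log2 fold change of HRD1Alb over WT liver for the 11 tested genes of the Ugt2 and Sult1 cluster in their order along chromosome 5, fasted as circles and refed as squares, with bars of 1 SE; filled symbols have an adjusted p under 0.05. Ugt2b1 is filled in both states, Ugt2a3 in the refed state, and Sult1e1 at the other end of the cluster in both, in the opposite direction.

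Refeeding for 4 h called 1 member in WT liver, where 2.61% of all tested genes passed, and 4 in HRD1Alb liver, where 10.5% did. Gstm4 was common to both: it was at 40.3 and 44.6 CPM in fasted and 74.7 and 74.4 in refed WT liver (0.81, SE 0.15, edgeR adjusted p = 0.0397), and at 44.9 and 40.4 in fasted and 95.9 and 91.6 in refed HRD1Alb liver (1.14, SE 0.15, adjusted p = 0.00865). The refed libraries were above the fasted ones in both genotypes. In HRD1Alb liver Gstm3 rose as well (1.85, adjusted p = 0.037), from 57.1 and 26.2 to 115 and 186 CPM, and Ugt1a9 fell from 39.5 and 39.3 to 16 and 9.43 CPM (-1.63, adjusted p = 0.015). Sult1e1 fell from 3.05 and 4.09 to 0.999 and 1.49 CPM (-1.52, SE 0.32, adjusted p = 0.0289). The 4 changes kept their direction without either refed HRD1Alb library in turn. In WT liver Sult1e1 went from 0.524 and 0.487 to 0.173 and 0.184 CPM, a change of about the same size that was not called (-1.49, adjusted p = 0.123). These counts also turned on single libraries. In WT liver 7 members passed without refed HRD1Alb replicate 1 (17.2% of all tested genes) and 7 without replicate 2 (17%), and 0 without any other library. In HRD1Alb liver 30 passed without replicate 1 (51.4%) and 6 without replicate 2 (19.7%), 2 without any single WT library and 0 without either fasted HRD1Alb library. Sult1d1 stood lower in the refed groups without a call, at 124 and 129 CPM in refed WT and 192 and 96 in refed HRD1Alb liver, after 261 and 216 and 369 and 224 CPM in the fasted groups.

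Whether the effect of the genotype differed between the feeding states was tested as an interaction over the same 8 libraries. No member was called in edgeR, DESeq2 or limma-trend, and 2 had an unadjusted p under 0.05 in edgeR. Of all tested genes edgeR called 0% and limma-trend 0, and DESeq2 called 95 (0.767% of the genes to which it gave an adjusted p). The calls made in 1 feeding state and not in the other, such as Gstp1 in fasted or Ugt1a9 in refed liver, were therefore not shown to differ between the states. Without refed HRD1Alb replicate 1, 16 members passed this test (7 higher, 9 lower; 33.4% of all tested genes), and without replicate 2, 0 did (0.69%). With all libraries the interaction for Gstp1 was 1.05 (adjusted p = 0.595) and for Ugt1a9 -1.33 (adjusted p = 0.561).

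The other genes of the pathway were read from a list of 64 genes for cofactor supply, other conjugating and deconjugating enzymes, transporters, regulators and their targets, of which 61 were tested. In fasted liver 1 was called higher and 2 lower in HRD1Alb liver, and in refed liver 5 higher and 6 lower (12 and 19 without refed HRD1Alb replicate 1, 9 and 15 without replicate 2). These counts stand beside calls for 1.35% of all tested genes in fasted and 11.9% in refed liver, and 52.8% and 23.7% in refed liver without replicate 1 and without replicate 2. Of the 4 genes that make and move UDP-glucuronic acid, the substrate of the Ugt enzymes, Ugdh, which oxidizes UDP-glucose to it, was at 194 and 148 CPM in fasted WT and 71 and 67.6 CPM in fasted HRD1Alb liver (-1.30, edgeR adjusted p = 0.0431). In refed liver it was at 338 and 266 CPM in WT and 294 and 234 in HRD1Alb liver, where the groups overlapped, and its rise on refeeding in HRD1Alb liver was 1.93 (adjusted p = 0.00583). None of the 5 tested genes of PAPS supply, 12 other conjugating enzymes or 3 deconjugating enzymes was called in either genotype comparison with all libraries in edgeR. Without refed HRD1Alb replicate 1, 3, 5 and 0 of them were called in refed liver, and without replicate 2, 0, 3 and 1.

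Of 6 tested genes of glutathione supply, 2 were called higher in refed HRD1Alb liver. Chac1, which breaks glutathione down, changed by 1.83 (edgeR adjusted p = 0.039), from 0.469 and 0.683 CPM in refed WT to 2.44 and 1.67 in refed HRD1Alb liver. In fasted liver it lay on the other side, at 2.62 and 3.99 CPM in WT and 1.29 and 2.23 in HRD1Alb liver (-0.91, edgeR adjusted p = 0.282). On refeeding it fell in WT liver (-2.52, edgeR adjusted p = 0.0361). Slc7a11, which imports cystine, had 0 counts in all 4 WT libraries and 0.43, 0.163, 3.13 and 0.548 CPM in the HRD1Alb libraries. The synthesis enzymes Gclc, Gclm and Gss were not called with all libraries. Gclm changed by -0.835 in refed liver with all libraries (edgeR adjusted p = 0.0651), and by -1.27 without refed HRD1Alb replicate 1 and -0.51 without replicate 2. Of 8 transporters, the uptake carrier Slco1a1 fell in both states: it was at 411 and 448 CPM in fasted WT and 87.8 and 106 in fasted HRD1Alb liver (-2.15, adjusted p = 0.0281), and at 397 and 386 against 35.3 and 64.6 CPM in refed liver (-2.97, adjusted p = 0.00703). Slco1b2 (-1.19, adjusted p = 0.0136) and the exporter Abcg2 (-0.74, adjusted p = 0.0409) were called lower in refed liver. For all 3, both refed HRD1Alb libraries were below both refed WT libraries (30.1% of all tested genes).

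Of the 15 regulators none was called in fasted liver in edgeR, and Ppara (-1.69, edgeR adjusted p = 0.00817), Rxra (-0.63, 0.0409) and the growth hormone receptor Ghr (-0.96, 0.019) were lower in refed HRD1Alb liver. For each of them both refed HRD1Alb libraries were below both refed WT libraries (30.1% of all tested genes). Hmox1, a target of oxidative stress signalling that breaks down heme, was at 10.7 and 11.7 CPM in fasted WT and 34.5 and 30.8 in fasted HRD1Alb liver (1.54, adjusted p = 0.0156), and at 15.2 and 12.9 against 61.6 and 61.8 CPM in refed liver (2.14, adjusted p = 0.00284). It was high in each of the 4 HRD1Alb libraries. Srxn1, which reactivates peroxiredoxins, was called higher in refed liver at 206 and 173 CPM against 108 and 81.6 in WT (edgeR adjusted p = 0.0231). In fasted liver Srxn1 lay on the other side, at 82.8 and 80.9 CPM against 107 and 99.3 in WT (-0.333, edgeR adjusted p = 0.397). Cyp2b10, a target of the xenobiotic receptor CAR, was also called higher in refed liver, at 181 and 85.8 against 23.6 and 17.9 CPM (2.69, edgeR adjusted p = 0.0166). For Hmox1, Srxn1 and Cyp2b10 both refed HRD1Alb libraries were above both refed WT libraries (30.7% of all tested genes). Nqo1, another gene of the oxidative stress response, was not called, at 9.09 and 10.6 CPM in refed WT and 12.8 and 14.4 in refed HRD1Alb liver. Txnrd1, on the same list of targets, was not called either and lay on the lower side. It was at 176 and 173 CPM in fasted WT and 124 and 129 in fasted HRD1Alb liver, and at 218 and 208 against 194 and 136 CPM in refed liver.

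Genes that differ between male and female mouse liver moved with the genotype as well, and because several members are of this kind their values stand beside the results above. The labels give no sex. Xist was at 0.0988 to 0.508 CPM and the Y-linked Ddx3y at 55.2 to 121 CPM, so that all 8 libraries had the Y-linked transcript. Of 13 male-biased liver genes, 12 were tested and all 12 had negative changes in both states, with 5 called lower in fasted and 9 in refed liver; their summed level was 4890 to 14500 CPM in WT and 934 to 2100 CPM in HRD1Alb libraries. Of 14 tested female-biased genes, 3 were called higher in fasted and 4 in refed liver (8 without refed HRD1Alb replicate 1), 9 had positive and 5 negative changes in fasted and 12 positive and 2 negative changes in refed liver, and the sum was 91.1 to 460 CPM in WT and 611 to 1180 CPM in HRD1Alb libraries. Of all tested genes 0.433% were called lower in fasted and 4.84% in refed liver, and 0.921% and 7.09% were called higher. The part of sex-biased expression in the changes of Gstp1, Ugt2b1, Ugt2b38, Sult2a2 and Sult3a1 was not tested.

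The makeup of the tissue can also move bulk values, and fewer cells of a type cannot be told apart from less RNA per cell. The 6 hepatocyte markers, albumin among them, summed to 110000 to 155000 CPM in WT and 67700 to 106000 CPM in HRD1Alb libraries, and none was called in either genotype comparison in edgeR (1 lower in refed liver without HRD1Alb replicate 1, 2 without replicate 2). Albumin made up most of the hepatocyte sum, at 79500 to 111000 CPM in WT and 47800 to 76600 in HRD1Alb libraries. Of the 6 hepatocyte markers 5 had negative changes in each state, and Tat had positive ones (0.13 fasted and 0.48 refed). The 5 tested macrophage markers all had positive changes and summed to 62.5 to 72.8 CPM in WT and 144 to 297 CPM in HRD1Alb libraries. Of these markers 1 was called in fasted and 5 in refed liver, where 0.921% and 7.09% of all tested genes were called higher. The 4 tested lymphocyte and neutrophil markers summed to 5.69 to 7.93 against 12.3 to 16.6 CPM. Ptprc made up most of this sum (4.36 to 6.96 against 10.4 to 14.5 CPM). Of the 4, 3 had positive changes in fasted and 4 in refed liver. The exception, S100a8, overlapped in fasted liver at 0.349 and 0.681 CPM in WT and 0.587 and 0.381 in HRD1Alb liver. The ranges of the stellate (157 to 325 against 311 to 403 CPM), cholangiocyte (32.2 to 68.6 against 29.1 to 53.2 CPM) and endothelial sums (83.7 to 99.9 against 91.3 to 107 CPM) overlapped. Their part in the results was not tested. Slco1a1 and Cyp2b10, given above with the pathway genes, are also on the male-biased and the female-biased list.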

How the data were processed

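Liver RNA of 8 mouse samples was sequenced, 2 in each of 4 groups defined by genotype and feeding in the labels. The values are counts of reads per gene, 1 deposited file per sample; per the study's methods the authors made the counts with ERANGE from NextSeq 500 reads, 1 lane per sample, and tested them with limma, whereas the submitters' processing notes name mm10, cutadapt, STAR, HTSeq and DESeq2 without their roles. Which of these made the deposited counts, the annotation, the strand setting and the treatment of reads with several matches are not given in the sources used here. No file column was left unassigned.

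Genes with too few reads were removed (filterByExpr, minimum count 10, minimum total 15), leaving 14328 of 23337. A model with 1 mean per group was fitted to all 8 libraries with edgeR 4.0.16 (R 4.3.3), TMM normalization and the quasi-likelihood test, with p-values adjusted by Benjamini-Hochberg over all tested genes. Each SE was obtained from the log2 fold change and the F statistic of its test (their quotient, after taking the root of F). The test is two-sided. Each fit was tested on simulated data. Library totals were 40210576 to 49117080 counts, with TMM factors of 0.8368 to 1.22, and a count of 3, the limit that a count of 0 allows, equals 0.0508 to 0.0788 CPM (counting error only). Nothing says that the samples came from separate animals, so p-values measure the spread between these samples. An exact permutation test of 2 against 2 cannot go below p = 0.333. The labels give no batch.

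The same replicate number marked no shared source: correlations of same-numbered deviations were 0.0161 to 0.179. The alternatives were limma-trend 3.58.1, DESeq2 1.42.0, RLE normalization, other filters, a replicate block, fits to fewer libraries and a 2-fold rule, and, added after the data were seen, a fit without the refed HRD1Alb libraries and an offset for transcript length (a smooth trend per library, span 0.3, over 12941 genes with a length). Genes named were the members called in any comparison, the 2 most abundant of each family, Gstp1 and Ugt2b38, the untested members and the pathway genes called between genotypes; others were named after their values were seen. The members, the marker genes Gstp1 and Ugt2b38, and all gene lists were chosen with earlier results of these data known. Positions and exonic lengths are GENCODE M21 on GRCm38, promoters RefSeq on GRCm38.p6, processed with Python 3.11.15. The markers Adgre1 and Ly6g and the deconjugating enzyme Sts were not analysed here.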

Additional observations from a re-analysis of the deposited data

Results flagged for a closer look

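Gstm6, a mu-class transferase, lay on opposite sides in the 2 feeding states with all libraries, without a call in either (edgeR adjusted p = 0.866 fasted and 0.105 refed). Both HRD1Alb libraries were below both WT libraries in fasted liver (54.5 and 55 against 55 and 60.5 CPM, log2 fold change -0.078) and above both in refed liver (67.1 and 87 against 57.3 and 53.4 CPM, 0.477). The interaction was tested and did not pass (edgeR adjusted p = 0.595). With the offset for transcript length the change was -0.142 in fasted and 0.025 in refed liver.

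A few genes with too few reads for a test had more reads in HRD1Alb libraries than the limit that a count of 0 allows. Sult2a5 had 69 and Sult2a6 81 counts in fasted HRD1Alb replicate 1, where Sult2a2 and Sult2a1 were also highest (265 and 58 counts), while the 4 WT libraries had 0 of both. Mgst2 had 4 and 5 counts in the fasted and 6 and 8 in the refed HRD1Alb libraries, against 1 in each WT library. Sult2b1 had 5 counts in refed HRD1Alb replicate 1 and Sult4a1 4 in fasted HRD1Alb replicate 1, each against at most 1 count in any WT library, and Ugt2a1 had 4 counts in refed HRD1Alb replicate 1 against 2 in refed WT replicate 1. With 2 libraries a group, libraries were not tested for standing apart from their group.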

How the results depend on the processing

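The counts of called members, 4 in fasted and 10 in refed liver between genotypes, 1 on refeeding in WT, 4 on refeeding in HRD1Alb liver and 0 for the interaction, stayed within 1.5 times with RLE normalization, limma-trend and no filter on low counts. With at least 10 counts required in every sample, fasted liver kept 1 (Gstp1). DESeq2 called 13, 22, 4 and 9 in the first 4 comparisons. Only the 4 samples of each contrast gave 20, 0, 6 and 0 (with 19 and 10 members at an unadjusted p under 0.05 in edgeR for the counts of 0), and the 2-fold rule gave 13, 19, 3, 10 and, for the interaction, 2. Of the alternatives added after the data were seen, leaving out both refed HRD1Alb samples gave 24 in fasted liver and 7 on refeeding in WT, and the offset for transcript length gave 12, 20 and 4 in the first 3 comparisons. For refeeding, the shares of all tested genes called in these settings are not given here, so those counts are not set against them. Leaving out 1 library gave 0 to 24, 0 to 28, 0 to 7, 0 to 30 and 0 to 16 members, where the high ends came without a refed HRD1Alb library. Of 1685 fold changes of named genes under an alternative, 1456 kept their side of the threshold with no called value changing sign, 114 lost and 114 gained the call, and 1 reversed: Gsta3 in refed liver, 0.16 with all libraries, was -0.56 (-0.559) without HRD1Alb replicate 2 and 0.63 (0.633) without replicate 1. The cause of these moves was not tested.

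With the replicate number as a block, edgeR called 2 members in fasted liver (Sult1e1 and Sult2a2), 11 in refed liver, 0 on refeeding in WT (8 at an unadjusted p under 0.05), 4 on refeeding in HRD1Alb liver and 0 for the interaction; the numbers are no evidence of pairing, since the same-numbered libraries share only a number. The shares of all tested genes called with the block are not given here. Depth limits the Sult2a genes, Sult3a1 and Ugt1a10, which rest on few reads in several libraries, and 2 libraries a group limit every test.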
